A study of Mus musculus with 12 samples.

Results

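The nuclear genes for the mitochondrial respiratory chain and ATP synthase were examined in chromatin accessibility data from mouse dorsal root ganglia (DRG), the ganglia that hold the cell bodies of the sensory neurons of the sciatic nerve. The genes were taken from a RefSeq table by symbol: protein-coding nuclear genes starting with Nduf, Uqcr, Atp5 or Cox4 to Cox8, and Sdha to Sdhd. This gave 96 of 21883 nuclear protein-coding genes. By symbol, 41 Nduf genes were grouped as complex I subunits, and a further 8 Ndufaf genes encode factors that assemble complex I. Symbols alone decided this, so Ndufa4 and Ndufa4l2 count with complex I here, and which complex holds their proteins was not checked. Complex II contributed 4 genes, complex III 8, complex IV 18 and ATP synthase 17. No measured value was used to choose them.

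Accessibility was measured by ATAC-seq, which uses a transposase that cuts and tags DNA where chromatin is open. The 4 groups of 3 libraries were Silc1-/- mice with a crushed sciatic nerve, Silc1-/- mice after a sham operation, wild-type mice (Silc1+/+) with a crushed sciatic nerve and wild-type mice after a sham operation. Silc1 is a long noncoding RNA. Each library came from lumbar ganglia, which contain satellite glia, Schwann cells, vascular and immune cells beside the neurons. The labels do not give the kind of Silc1 deletion, the age of the mice or the time after injury, and they name purchased C57black6 Ola HSD males beside strains bred in house without tying either to a group. The data of each group are 1 list of peak summits. Animals within a group cannot be compared, and the groups are set side by side without a test. The lists held 35815 summits in Silc1-/- injured, 48332 in Silc1-/- sham, 43841 in wild-type injured and 27279 in wild-type sham. The depth behind each list is unknown, and a list's length, its scores and the genes it reaches can all vary with depth. In these whole ganglia a change in the number of cells of a type cannot be told apart from a change in accessibility within the cells. No summit of any list lay within 1 kb of Gm9866, the annotated gene taken here as Silc1, so the lists do not check the deletion.

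The respiratory chain passes electrons from NADH (complex I) and succinate (complex II) through complex III to complex IV, which reduces oxygen. The proton gradient that complexes I, III and IV build drives ATP synthase. Most subunits are encoded in the nucleus, and their promoters are textbook targets of nuclear respiratory factor 1 (NRF1) and of the ETS factor GABP, also called nuclear respiratory factor 2. DRG neurons have high energy needs because of their long axons. Several subunits of complex IV exist as a broadly used isoform and an isoform restricted to muscle, testis or hypoxic cells.

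A summit within 1 kb of either end of a gene is called a gene-end summit here. Most respiratory chain genes had one in each list. The count was 75 of 96 genes in Silc1-/- injured (78.1%, 95% Wilson interval 68.9 to 85.2%), where 45.6% of all protein-coding genes had one. It was 80 genes in Silc1-/- sham (83.3%, 74.6 to 89.5%), against 50.9% of all protein-coding genes. In wild-type injured it was 83 genes (86.5%, 78.2 to 91.9%), against 51.9%. In wild-type sham it was 80 genes (83.3%, 74.6 to 89.5%), against 46.2%. The intervals cover counting error over genes only. The share among respiratory chain genes was thus above that of all protein-coding genes in every list, and the intervals of the 4 lists overlapped.

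The same genes carried the summits from list to list. Gene-end summits were present in all 4 lists for 74 respiratory chain genes (77.1%), where 40.8% of all protein-coding genes had this, and in no list for 12 (12.5%), against 43.4%. The remaining 10 genes had one in 1 to 3 lists. Cytosolic ribosomal protein genes, another broadly expressed group, were close to the respiratory chain: 78 of 91 had a gene-end summit in Silc1-/- injured, 78 in Silc1-/- sham, 79 in wild-type injured and 78 in wild-type sham, and 76 had one in all 4 lists. Vomeronasal receptor genes, which serve pheromone sensing in the nose, lay at the other end, with 2, 2, 3 and 2 of 355 genes in the same order of lists.

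**Figure D1:**
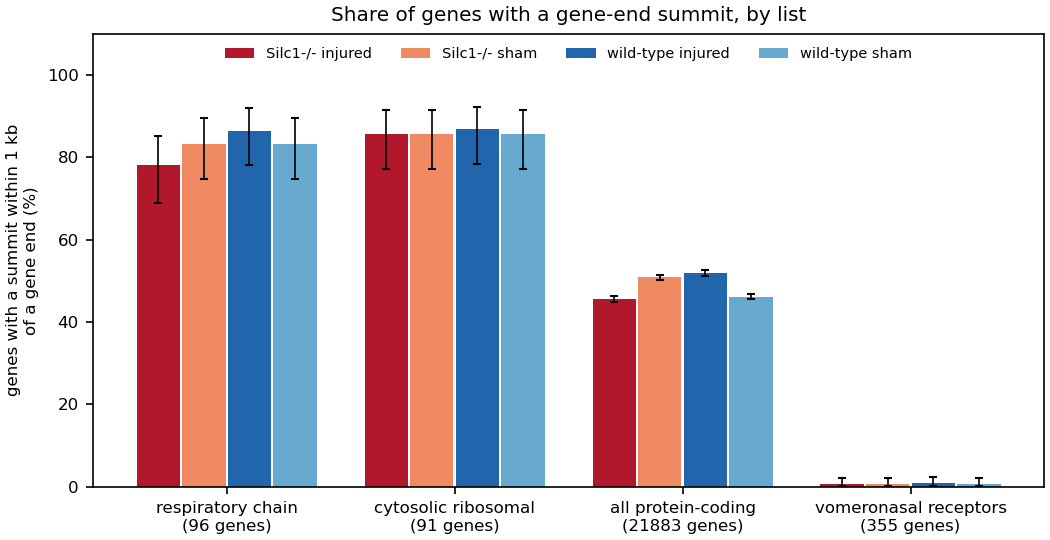
Percent of genes with a summit within 1 kb of a gene end (y axis) for respiratory chain genes, cytosolic ribosomal protein genes, all protein-coding genes and vomeronasal receptor genes; bars are the 4 lists and error bars are 95% Wilson intervals (counting error only). Respiratory chain genes lie between 78.1 and 86.5%, near the ribosomal genes and above all protein-coding genes in every list.

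The complexes differed in coverage. All 4 complex II genes, which encode succinate dehydrogenase, and all 8 complex III genes had a gene-end summit in every list. Genes grouped as complex I subunits with one numbered 34 of 41 in Silc1-/- injured, 36 in Silc1-/- sham, 38 in wild-type injured and 36 in wild-type sham. Complex I assembly genes numbered 7, 8, 8 and 7 of 8 in the same order. ATP synthase genes numbered 15 of 17 in Silc1-/- injured, Silc1-/- sham and wild-type injured and 16 in wild-type sham. Complex IV, cytochrome c oxidase, taken here as its Cox genes, was the exception. Of these 18 genes, 7 had one in Silc1-/- injured, 9 in Silc1-/- sham, 10 in wild-type injured and 9 in wild-type sham.

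Much of the gap in complex IV lay in tissue-restricted isoforms. Of the 8 such genes, 7 belong to complex IV: Cox4i2 (lung and hypoxic cells), Cox6a2, Cox7a1 and Cox8b (heart and skeletal muscle), and Cox6b2, Cox7b2 and Cox8c (testis). The remaining isoform, Ndufa4l2, is induced in hypoxia. Gene-end summits were found for 0 of the 8 in Silc1-/- injured, 1 in Silc1-/- sham, 2 in wild-type injured and 2 in wild-type sham. Cox7a1 had a summit with a score of 5.01 in Silc1-/- sham, 13.7 in wild-type injured and 8.10 in wild-type sham. Scores are those the authors deposited, on a −log10 scale, and depend on depth. Cox6b2 had one of 8.06 in wild-type injured and 2.67 in wild-type sham. Both genes lie within 1 kb of the end of another gene, Cox7a1 beside Capns1 and Cox6b2 beside Fam71e2. Cox4i2, Cox6a2, Cox7b2, Cox8b, Cox8c and Ndufa4l2 had no gene-end summit in any list.

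The broadly used partners of these isoforms were covered, except Cox7a2 and Cox7b. Cox4i1, Cox6a1, Cox6b1 and Cox8a had a gene-end summit in all 4 lists. Cox8a, the broadly used form of subunit 8, had scores of 16.1 in Silc1-/- injured, 18.5 in Silc1-/- sham, 27.1 in wild-type injured and 25.8 in wild-type sham. Cox8b, its muscle partner, had no summit within 50 kb that was away from gene ends, and its nearest summit of any kind lay at least 8313 bp off. Without the 8 isoforms, 88 genes remained, of which 75 had a gene-end summit in Silc1-/- injured, 79 in Silc1-/- sham, 81 in wild-type injured and 78 in wild-type sham.

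Where an annotated start lies inside a gene's outermost ends, the 1 kb rule missed summits at that start. The RefSeq promoter table gives starts for 78 of the 96 genes and showed this for Cox5a, Cox7a2, Atp5g3 and Atp5d. Cox5a, a nuclear-encoded subunit of complex IV at chr9:57517328-57532427, had a summit 21 bp from its annotated start in Silc1-/- injured, 12 bp in Silc1-/- sham, 16 bp in wild-type injured and 31 bp in wild-type sham. Its scores there were 11.1, 26.3, 37.6 and 18.8 in the same order. These summits lay 3873 to 3916 bp from the gene's outermost end and so were not gene-end summits.

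Cox7a2, the broadly used partner of Cox7a1, had summits inside the gene with scores of 21.3 in Silc1-/- injured, 18.7 in Silc1-/- sham, 51.6 in wild-type injured and 23.4 in wild-type sham. These lay 68, 3, 44 and 20 bp from its annotated start in the same order. Atp5g3, which encodes a form of the c-ring subunit of ATP synthase, had its nearest summits 1092, 1043, 1175 and 1119 bp from the gene end, just outside the 1 kb limit in every list. They lay only 46, 95, 37 and 19 bp from its annotated start, with scores of 12.3, 7.94, 14.1 and 7.08. Atp5d, the delta subunit of the F1 head, was counted only in wild-type sham, yet had a summit at most 6 bp from an internal start in every list, with scores of 14.4, 17.1, 36.7 and 16.1. The gene-end rule alone gives these genes no summit in 3 or 4 lists.

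With annotated starts counted beside gene ends, 79 genes had a summit in Silc1-/- injured, 84 in Silc1-/- sham, 87 in wild-type injured and 83 in wild-type sham. Then 78 (81.3%) had one in all 4 lists, where 44.4% of all protein-coding genes did, and 9 had none in any list. Of these 9, 6 were tissue-restricted isoforms. The remaining 3 were Cox7b, Ndufb4b and Ndufb4c. For Cox4i2, Cox6a2, Cox8c, Ndufa4l2 and Ndufb4c the promoter table gives no start, so only their gene ends were checked. Inside Ndufa4l2, at chr10:127513002, a summit was present in all 4 lists. It had scores of 2.43 in Silc1-/- injured, 10.4 in Silc1-/- sham, 15.1 in wild-type injured and 16.5 in wild-type sham. Cox7b, an X-linked accessory subunit of complex IV, had its nearest summits 3882 bp away in Silc1-/- injured, 3723 bp in Silc1-/- sham, 3829 bp in wild-type injured and 3703 bp in wild-type sham, all on the upstream side. Their scores were 5.80, 15.8, 29.5 and 12.02 in the same order. Ndufb4b and Ndufb4c are named as further copies of Ndufb4, and how reads that match several copies were treated is not given in the sources used here.

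Just inside the 1 kb limit lay Ndufa13 (675 bp in Silc1-/- injured, 725 bp in Silc1-/- sham, 584 bp in wild-type sham) and Ndufa11 (706 bp in Silc1-/- injured, 719 bp in Silc1-/- sham). Atp5g3 was the nearest outside it in every list. Few genes therefore sat close to the limit.

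For the genes that did have gene-end summits, each list's best summit per gene was ranked by its score percentile among all summits of that list. The median percentile over respiratory chain genes was 79.7 in Silc1-/- injured, 88.4 in Silc1-/- sham, 86.5 in wild-type injured and 76.0 in wild-type sham. All protein-coding genes with a gene-end summit had medians of 76.4, 84.0, 83.7 and 75.7 in the same order. The respiratory chain medians were thus within about the same range as those of other genes with an open end. A gene-end summit with a score of at least 10 was held by 41 genes in Silc1-/- injured (42.7%, against 22% of all protein-coding genes), 66 in Silc1-/- sham (68.8% against 32.3%), 73 in wild-type injured (76.0% against 38%) and 59 in wild-type sham (61.5% against 30%).

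**Figure D2:**
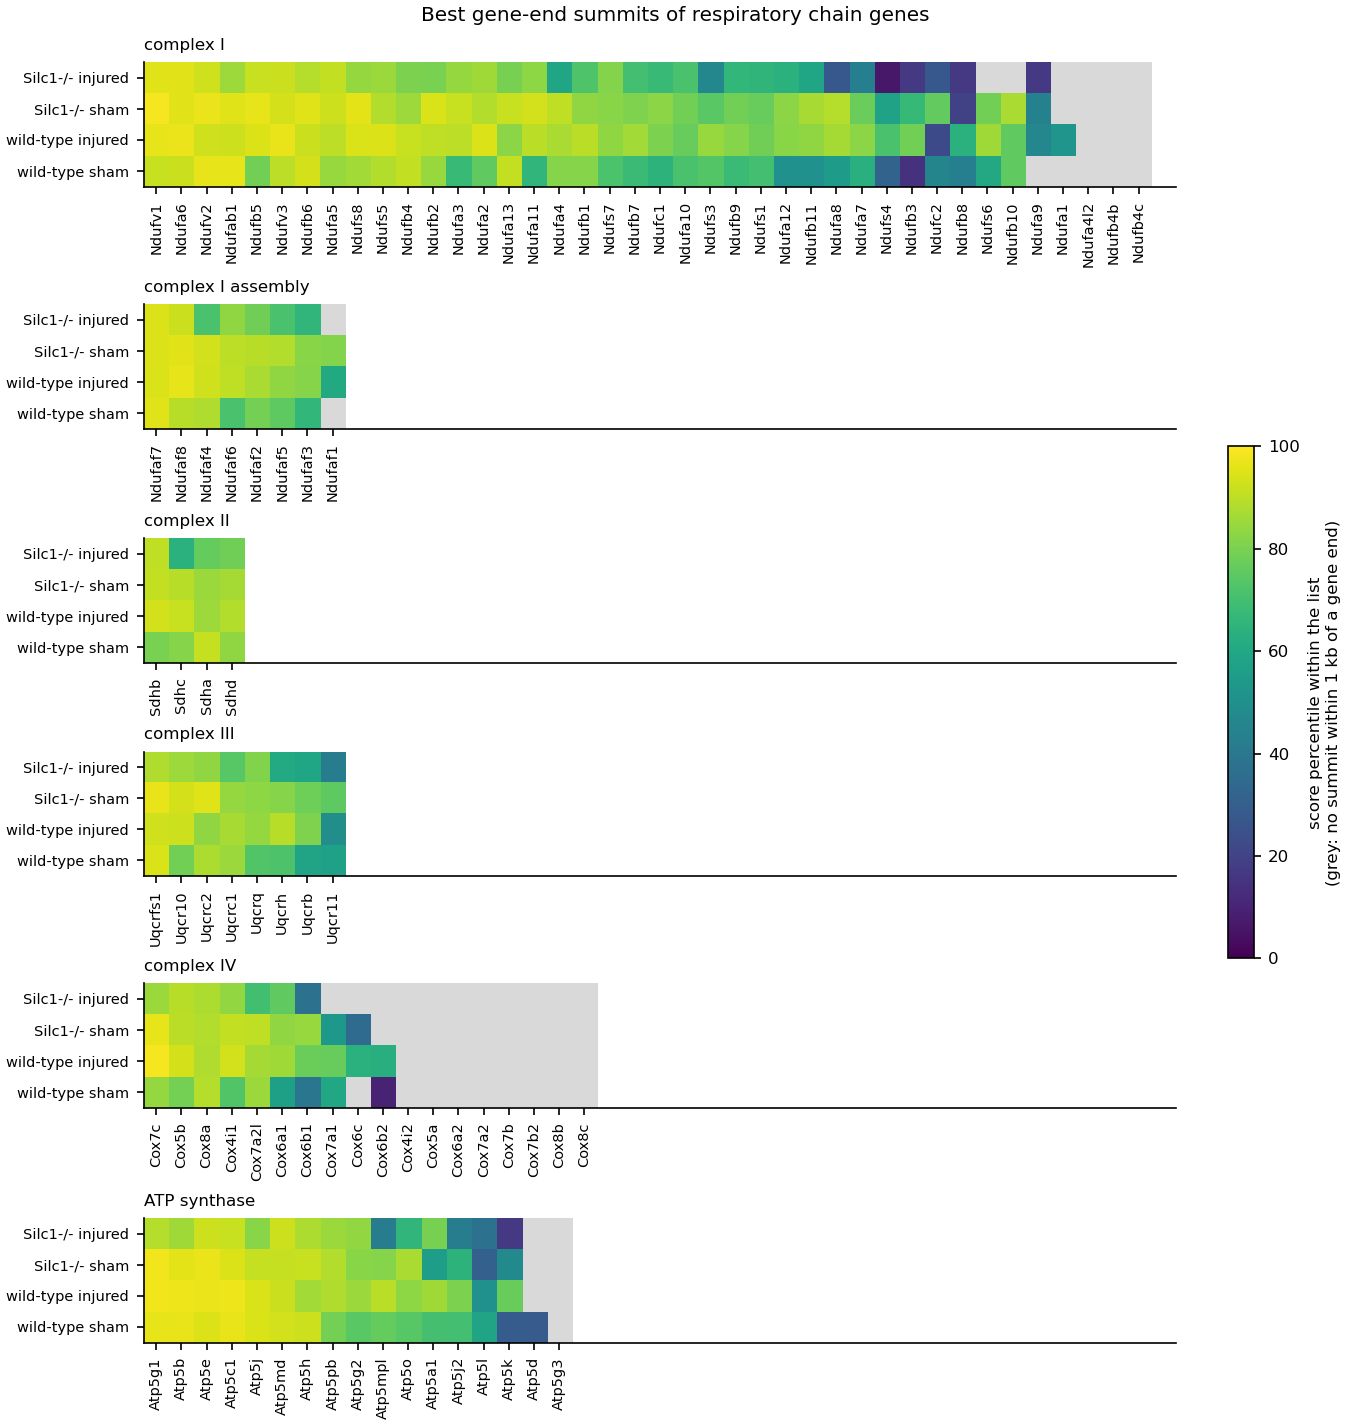
Score percentile within its list (colour) of the best gene-end summit of 95 of the 96 respiratory chain genes (columns, grouped by complex) in each list (rows); grey marks genes with no gene-end summit. Most complex I, II, III and ATP synthase genes are filled in all 4 rows, while 8 of 18 complex IV genes are grey throughout.

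In each complex a gene was picked by the highest of the lowest percentiles over the 4 lists, which does not make it first in every list. Ndufv2, an iron-sulfur subunit of the NADH-oxidising arm of complex I, had scores of 22.7 in Silc1-/- injured, 39.5 in Silc1-/- sham, 38.5 in wild-type injured and 41.8 in wild-type sham, and its percentile was at least 92.7 in each list. Ndufaf7, an assembly factor of complex I, had percentiles of 94.6, 94.9, 94.2 and 95.1 in the same order. This was the narrowest range among the 74 genes, 0.891 points. Sdhb, the iron-sulfur subunit of succinate dehydrogenase, had percentiles of 90.3, 91.0, 93.2 and 79.8, and was the lowest of the 4 complex II genes in wild-type sham.

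Uqcrfs1, the Rieske iron-sulfur protein of complex III, had percentiles of 88.2 in Silc1-/- injured, 96.7 in Silc1-/- sham, 92.6 in wild-type injured and 94.4 in wild-type sham. Atp5e, the epsilon subunit of the F1 head, had percentiles of 92.5, 97.2, 97.3 and 94.8 in the same order. Cox7c, an accessory subunit of complex IV, held the highest score of any respiratory chain gene end, 73.4 in wild-type injured, beside 14.2 in Silc1-/- injured, 36.3 in Silc1-/- sham and 20.5 in wild-type sham. In each of these genes the best summit was above the 75th percentile of its list in all 4 lists.

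Ndufs4 and Atp5k were picked for the lowest of the lowest percentiles in complex I and ATP synthase. A wider range than in the genes above follows in part from that choice. Ndufs4, an accessory subunit whose loss causes a Leigh-like disease in mice, had scores of 1.91 in Silc1-/- injured, 5.67 in Silc1-/- sham, 10.7 in wild-type injured and 4.20 in wild-type sham. Its percentiles were 6.59, 57.6, 71.1 and 32.0, the widest range of the 74 genes at 64.5 points. Atp5k, subunit e of the membrane part of ATP synthase, had scores of 2.48, 4.64, 14.0 and 4.16 and percentiles of 16.4, 47.9, 76.9 and 29.2 in the same order. For both genes the Silc1-/- injured value was the lowest and the wild-type injured value the highest.

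Ndufb3, a membrane-arm subunit of complex I, had percentiles of 16.4 in Silc1-/- injured, 67.1 in Silc1-/- sham, 78.6 in wild-type injured and 14.4 in wild-type sham. Cox6b1, which sits on the intermembrane-space side of complex IV, had 37.7, 84.4, 77.4 and 39.3 in the same order. Uqcr11, a small subunit of complex III, had 41.8, 75, 49.5 and 57.4. In these 3 genes the rank in Silc1-/- sham was above that in Silc1-/- injured and in wild-type sham.

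This order of lists was that of protein-coding genes at large. Of the 74 genes in all 4 lists, the lowest percentile fell in Silc1-/- injured for 41 (55.4%, against 49.1% of all protein-coding genes in all 4 lists) and in wild-type sham for 26 (35.1% against 40.6%). The highest percentile was in wild-type injured for 37 (50% against 48.1%), in Silc1-/- sham for 29 (39.2% against 41.0%) and in Silc1-/- injured for 0 (against 5.01%). Cut to the length of the shortest list, the medians were 79.7 in Silc1-/- sham and 78.7 in wild-type injured, closer to the medians of the shorter lists. Over the 74 genes the scores of any 2 lists had a Spearman rho between 0.75 and 0.83. Over the 8928 protein-coding genes in all 4 lists it was 0.81 to 0.87, and higher than over the 74 in every pair. These are descriptions, since the genes of a list share its libraries. In every list above the 75th percentile were 34 of the 74 genes (45.9% against 48.0%).

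The genes that had a gene-end summit in some lists only are few and mostly of low score. Absent from Silc1-/- injured alone were Ndufb10, Ndufs6 and Cox7a1. Ndufb10, a membrane-arm subunit, had scores of 16.9 in Silc1-/- sham, 13.0 in wild-type injured and 14.1 in wild-type sham. Its nearest summit in Silc1-/- injured lay 1976 bp from the gene. Ndufs6, which carries a zinc site, had 10.6 in Silc1-/- sham, 23.3 in wild-type injured and 8.20 in wild-type sham. Of these genes, only Ndufb10 scored above 10 in all 3 lists that held its summit. Ndufb10 and Ndufs6 both share an end with a neighbour, Rps2 at 133 bp and Mrpl36 at 21 bp.

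Ndufa9, a nucleotide-binding subunit of complex I, was absent from wild-type sham only, with scores of 2.48 in Silc1-/- injured, 4.29 in Silc1-/- sham and 5.19 in wild-type injured. Cox6c, an accessory subunit of complex IV, had summits of 3.63 in Silc1-/- sham and 8.23 in wild-type injured. Ndufaf1, an assembly factor of complex I, had 12.1 in Silc1-/- sham and 7.44 in wild-type injured. Both of these were present in the longest lists and absent from the shorter ones. Ndufa1, an X-linked membrane-arm subunit, had 1 summit of 5.92 in wild-type injured only.

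Set list against list, Silc1-/- injured had 0 genes with a gene-end summit that Silc1-/- sham lacked (against 1.91% of all protein-coding genes) and lacked 5 that Silc1-/- sham had (5.21% against 7.18%). Wild-type injured had 4 that wild-type sham lacked (4.17% against 7.07%) and lacked 1 (1.04% against 1.33%). Silc1-/- sham had 3 that wild-type sham lacked (3.13% against 6.65%) and lacked 3 (3.13% against 1.96%). Silc1-/- injured had 0 that wild-type injured lacked (against 1.71%) and lacked 8 (8.33% against 8.04%). These shares were below or near those of all protein-coding genes, and the longer list of a pair had the larger share, except between the sham lists, where both shares were 3.13%.

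The summits stood at nearly the same place in each list. Of the 87 gene-end summits of Silc1-/- injured, 89.7% had a Silc1-/- sham summit within 200 bp and 90.8% a wild-type injured one. Of the 98 of Silc1-/- sham, 78.6% had a Silc1-/- injured summit within 200 bp and 80.6% a wild-type sham one. Of the 98 of wild-type injured, 80.6% had a Silc1-/- injured summit and 86.7% a wild-type sham one. Of the 91 of wild-type sham, 92.3% had a wild-type injured summit and 87.9% a Silc1-/- sham one. Over all 12 ordered pairs the share was 78.6 to 92.3%, and 69.0 to 85.5% for gene-end summits of all protein-coding genes.

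For the 74 genes in all 4 lists, the best summits of the 4 lists spanned a median of 57 bp (75 bp for all protein-coding genes in all 4 lists), and for 66 of them (89.2% against 81.7%) the span was 200 bp or less. In Sdhb the 4 summits fell within 7 bp, and in Ndufs5, an accessory subunit of complex I, within 5 bp. The widest span was 793 bp in Atp5l, subunit g of ATP synthase.

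Relative to the annotated start, the best gene-end summit lay at a median of −50.5 bp in Silc1-/- injured, −46 bp in Silc1-/- sham, −44 bp in wild-type injured and −45 bp in wild-type sham, where negative is upstream. It lay within 250 bp of a start for 87.5, 89.7, 88.6 and 86.8% of the respiratory chain genes with a start in the table, against 77.9, 76.5, 77.7 and 78.8% of all such protein-coding genes. Downstream of the start lay 14.1% in Silc1-/- injured, 13.2% in Silc1-/- sham, 21.4% in wild-type injured and 25% in wild-type sham, against 33.0, 32.4, 31.0 and 33.3%. The respiratory chain summits were thus placed more tightly upstream of the start, though the base under a summit depends on how insertions were shifted, which is not given in the sources used here. A far case was Ndufb6, whose best summit lay 9554 to 9559 bp downstream of its annotated start, at the gene end it shares with Topors and Smim27.

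**Figure D3:**
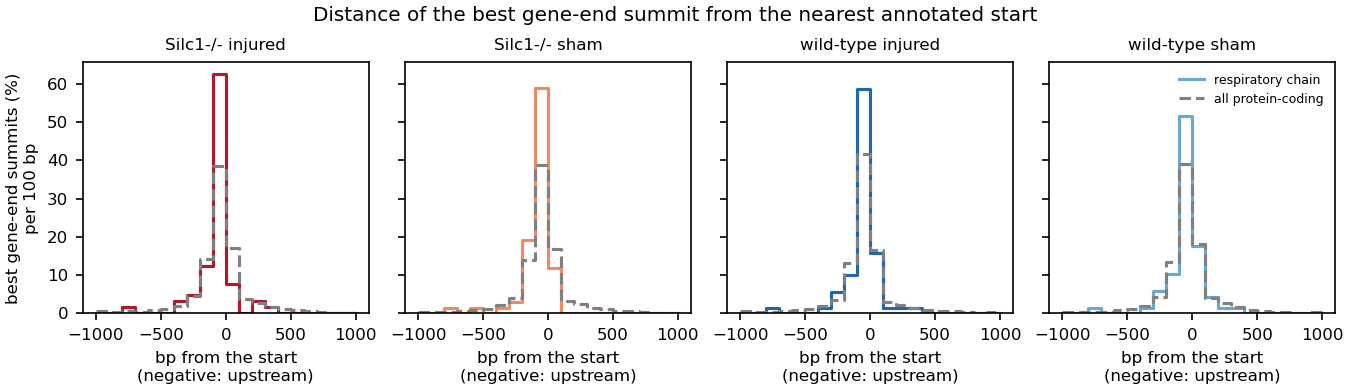
Distance in bp of the best gene-end summit from the nearest annotated start (x axis, negative upstream) as percent of genes per 100 bp (y axis), for respiratory chain genes (solid) and all protein-coding genes (dashed), with a panel for each list. In each panel the respiratory chain line peaks just upstream of the start, with medians between −50.5 and −44 bp.

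Many of the genes share an end with a neighbour, and a summit there counts for both. An end of another protein-coding gene lay within 1 kb for 54 of the 96 (56.3%), against 24.8% of all protein-coding genes. In 24 pairs the starts faced away from each other, as in a promoter that serves both genes. Sdhd, a membrane anchor of complex II, starts 52 bp from Timm8b, a chaperone of mitochondrial import. Ndufa7 starts 10 bp from Rps28, a ribosomal protein gene, and Ndufs3, a core subunit of complex I, starts 19 bp from Kbtbd4. Atp5j, a stalk subunit of ATP synthase, starts 148 bp from Gabpa, which encodes the DNA-binding subunit of GABP.

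Among genes with a shared end, 43 of 54 had a gene-end summit in Silc1-/- injured, 47 in Silc1-/- sham, 50 in wild-type injured and 49 in wild-type sham. These are 79.6, 87.0, 92.6 and 90.7%, against 68.7, 74.5, 76.1 and 71.0% of all protein-coding genes with a shared end. Among those without, 32 of 42 had one in Silc1-/- injured, 33 in Silc1-/- sham, 33 in wild-type injured and 31 in wild-type sham, or 73.8 to 78.6%, against 38 to 43.9% of all protein-coding genes without a shared end.

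The annotated promoter sequences of 10 genes are printed. They are 4 of the genes picked for a high lowest percentile and the 2 lowest of complex I and ATP synthase. Beside them stand 3 genes with no gene-end summit but broad use, and a muscle isoform. Each runs from 250 bases upstream to 50 bases downstream of the annotated start, 5′ to 3′ on the gene's strand, from RefSeq on GRCm38.p6, the same build as mm10. Capitals mark matches, on either strand, to the NRF1 motif of 10 bases, to the NRF1 core TGCGCA, to the motif of ETS factors such as GABP (CCGGAAG) and to that of YY1 (AAGATGGC). The positions are, on the minus strand, chr17:66101510-66101809 for Ndufv2, chr19:7217567-7217866 for Cox8a, chr2:174464052-174464351 for Atp5e, chr13:114388045-114388344 for Ndufs4, chr5:108434350-108434649 for Atp5k, chr2:73911277-73911576 for Atp5g3 and chr7:140900397-140900696 for Cox8b. On the plus strand they are chr4:140961021-140961320 for Sdhb, chr9:57520982-57521281 for Cox5a and chrX:106015450-106015749 for Cox7b.
Ndufv2: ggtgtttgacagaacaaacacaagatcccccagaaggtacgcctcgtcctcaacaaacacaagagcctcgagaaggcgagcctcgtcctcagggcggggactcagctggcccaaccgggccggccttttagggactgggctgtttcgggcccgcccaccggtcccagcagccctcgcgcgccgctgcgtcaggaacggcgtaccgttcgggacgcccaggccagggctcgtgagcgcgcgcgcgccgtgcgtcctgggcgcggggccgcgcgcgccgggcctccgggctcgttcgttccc
Sdhb: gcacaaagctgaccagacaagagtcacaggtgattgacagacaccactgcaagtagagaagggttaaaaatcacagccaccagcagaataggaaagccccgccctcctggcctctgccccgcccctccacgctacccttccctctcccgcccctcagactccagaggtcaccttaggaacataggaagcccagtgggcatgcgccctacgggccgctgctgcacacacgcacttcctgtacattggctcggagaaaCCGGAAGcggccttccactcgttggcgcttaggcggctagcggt
Cox8a: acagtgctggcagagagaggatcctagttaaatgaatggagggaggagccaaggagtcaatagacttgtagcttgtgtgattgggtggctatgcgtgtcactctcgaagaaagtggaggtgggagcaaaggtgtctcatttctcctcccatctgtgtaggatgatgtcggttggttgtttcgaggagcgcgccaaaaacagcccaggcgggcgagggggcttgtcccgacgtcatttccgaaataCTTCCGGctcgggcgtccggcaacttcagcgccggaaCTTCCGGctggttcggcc
Atp5e: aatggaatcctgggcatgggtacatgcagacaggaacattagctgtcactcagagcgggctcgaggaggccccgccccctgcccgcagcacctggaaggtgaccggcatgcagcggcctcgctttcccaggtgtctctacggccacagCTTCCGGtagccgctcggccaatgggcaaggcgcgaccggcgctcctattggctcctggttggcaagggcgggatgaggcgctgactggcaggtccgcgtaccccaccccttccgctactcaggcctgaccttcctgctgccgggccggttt
Ndufs4: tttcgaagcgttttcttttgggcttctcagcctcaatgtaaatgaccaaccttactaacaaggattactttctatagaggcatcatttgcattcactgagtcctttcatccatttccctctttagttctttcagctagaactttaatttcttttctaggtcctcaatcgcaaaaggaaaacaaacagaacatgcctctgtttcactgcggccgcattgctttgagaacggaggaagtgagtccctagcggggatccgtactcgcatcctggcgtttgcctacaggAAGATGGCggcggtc
Atp5k: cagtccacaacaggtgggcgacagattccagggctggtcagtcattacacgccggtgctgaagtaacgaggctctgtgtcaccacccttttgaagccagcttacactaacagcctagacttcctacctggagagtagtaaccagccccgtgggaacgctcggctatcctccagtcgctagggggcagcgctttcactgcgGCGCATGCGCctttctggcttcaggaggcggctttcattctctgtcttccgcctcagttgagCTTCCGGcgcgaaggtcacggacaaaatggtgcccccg
Atp5g3: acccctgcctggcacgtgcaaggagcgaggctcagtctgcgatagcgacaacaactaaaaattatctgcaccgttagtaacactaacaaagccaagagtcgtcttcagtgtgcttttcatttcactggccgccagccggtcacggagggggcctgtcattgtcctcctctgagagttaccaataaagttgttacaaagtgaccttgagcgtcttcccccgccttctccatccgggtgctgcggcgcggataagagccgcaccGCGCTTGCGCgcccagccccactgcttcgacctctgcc
Cox5a: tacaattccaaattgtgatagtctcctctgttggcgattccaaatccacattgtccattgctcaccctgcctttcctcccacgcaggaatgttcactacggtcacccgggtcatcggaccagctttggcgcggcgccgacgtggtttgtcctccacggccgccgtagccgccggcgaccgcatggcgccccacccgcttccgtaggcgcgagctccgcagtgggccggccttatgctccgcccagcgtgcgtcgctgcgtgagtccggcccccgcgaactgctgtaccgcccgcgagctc
Cox7b: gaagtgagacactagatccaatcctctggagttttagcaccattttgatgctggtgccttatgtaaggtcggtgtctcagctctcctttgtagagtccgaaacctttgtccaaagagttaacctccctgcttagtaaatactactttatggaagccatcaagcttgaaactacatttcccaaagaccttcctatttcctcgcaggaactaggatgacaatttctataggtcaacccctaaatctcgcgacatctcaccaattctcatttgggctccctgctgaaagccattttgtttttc
Cox8b: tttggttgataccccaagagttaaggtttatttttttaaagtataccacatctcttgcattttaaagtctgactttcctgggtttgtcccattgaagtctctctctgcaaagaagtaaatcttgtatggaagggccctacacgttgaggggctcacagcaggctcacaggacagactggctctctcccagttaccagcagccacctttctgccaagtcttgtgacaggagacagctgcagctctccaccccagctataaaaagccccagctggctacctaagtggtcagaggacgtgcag

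Of the high-ranked genes, Sdhb and Atp5e held 1 CCGGAAG match each and Cox8a 2, while Ndufv2 held none of the 4 motifs in this window but 39 CpG dinucleotides. Of the low-ranked genes, Ndufs4 held the YY1 letters and 12 CpGs, and Atp5k an NRF1 and an ETS match and 19 CpGs. The best Ndufs4 summits of Silc1-/- injured and wild-type sham lay 235 and 141 bp downstream of the start, outside this window. Atp5g3 held an NRF1 match and 21 CpGs and Cox5a 35 CpGs, and both had summits at these starts. Cox7b held 5 CpGs and Cox8b 2, with no match to these motifs, and neither had a summit there in any list. In these 10 examples the genes with a summit at the start held 12 or more CpGs and the 2 without held 5 or fewer. This split did not hold beyond the examples. Ndufc2, with 8 CpGs, had a summit within 1 kb of its start in all 4 lists. Cox7a1, with 7 CpGs, had one in 3 lists and Cox6b2, with 10, in 2.

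Over all 78 genes with a promoter in the table, the NRF1 motif was present in 19 (24.4%), against 7.17% of the 17491 protein-coding genes with one. TGCGCA, the shorter NRF1 core, which can overlap the longer motif, was also present in 19 (24.4% against 11%). CCGGAAG was present in 19 (24.4% against 12.9%) and AAGATGGC in 11 (14.1% against 3.57%). GGGCGG, a site of SP1 and related factors, was present in 35 (44.9% against 49.2%) and CCAAT, the NF-Y site, in 34 (43.6% against 42.3%). The NRF1, ETS and YY1 letters thus had higher shares than in promoters at large, the SP1 letters a lower and the NF-Y letters a similar one; these shares are descriptions and were not tested.

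The motifs were also counted in genes with both a gene-end summit in all 4 lists and a promoter in the table. The 63 such respiratory chain genes had more NRF1 matches (27.0% against 13.2% of such protein-coding genes). They also had more YY1 (14.3% against 5.81%) and ETS matches (28.6% against 22.7%) and fewer SP1 matches (46.0% against 72.4%). Over the 70 ribosomal protein genes with a promoter in the table, whatever their summits, 8.57% held NRF1 matches and 37.1% ETS matches. Each of these motifs stood at 24.4% over the 78 respiratory chain genes. Genes with NRF1 matches included Sdha, the flavoprotein of succinate dehydrogenase, with 3, Ndufb4 with 3, Uqcrc1, a core protein of complex III, with 2 and Cox6a1 with 2. The YY1 genes were Atp5j, Atp5j2, Atp5pb, Ndufa3, Ndufa9, Ndufaf8, Ndufb8, Ndufc1, Ndufs4, Ndufs6 and Ndufs7. The same 63 genes had a median of 21 CpGs, against 23 for protein-coding genes limited in the same way. The 7 genes with a promoter in the table but no gene-end summit had a median of 10, against 4. Of these 7, the 3 with a summit at an annotated start (Atp5g3, Cox5a and Cox7a2) held 20 to 35 CpGs and the 4 with none there (Cox7b, Cox7b2, Cox8b and Ndufb4b) held 2 to 10. A match in these letters does not show that a factor was bound in the ganglion.

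**Figure D4:**
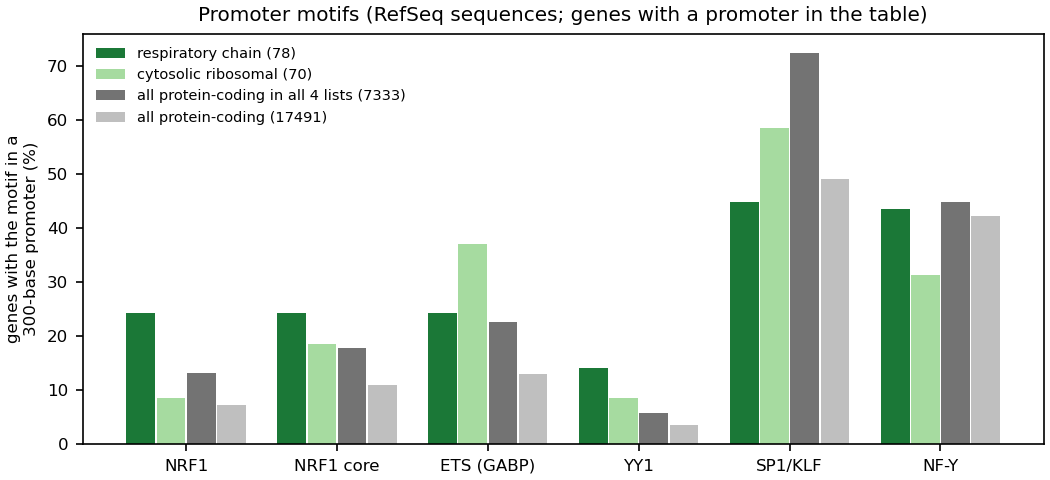
Percent of genes with at least 1 match to each motif in the window from 250 bases upstream to 50 bases downstream of an annotated start (y axis), for respiratory chain genes, cytosolic ribosomal protein genes, protein-coding genes with a gene-end summit in all 4 lists and all protein-coding genes. NRF1 matches stand at 24.4% in respiratory chain genes against 7.17% in all protein-coding genes, and SP1/KLF matches at 44.9% against 49.2%.

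Summits away from gene ends were then counted around the 96 genes. A distal summit is one over 1 kb from the end of any protein-coding or long noncoding RNA gene. Within 50 kb of the respiratory chain genes lay 141 in Silc1-/- injured, 196 in Silc1-/- sham, 191 in wild-type injured and 95 in wild-type sham. Per 1000 distal summits of the list this was 5.80, 5.70, 6.42 and 6.0, so the counts followed the lists' own totals. With each list cut to the length of the shortest, the counts were 111, 115, 118 and 95 in the same order. The mean per gene was 1.47 in Silc1-/- injured, 2.04 in Silc1-/- sham, 1.99 in wild-type injured and 0.990 in wild-type sham, against 1.54, 2.25, 2.17 and 1.11 over all protein-coding genes. The respiratory chain means were slightly below those of all protein-coding genes in each list. The counts include the summits at internal starts of Cox5a, Cox7a2, Atp5g3 and Atp5d, which lie over 1 kb from gene ends.

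**Figure D5:**
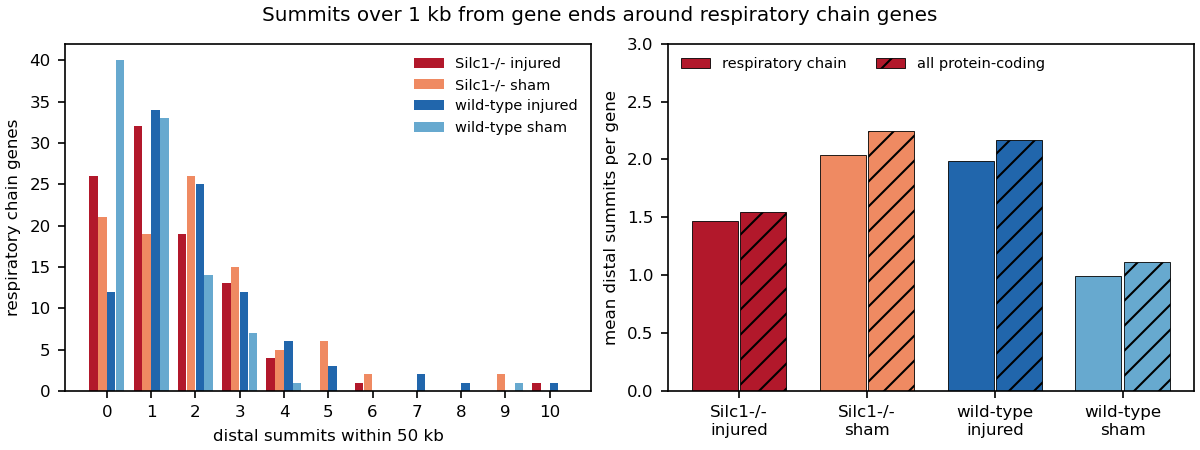
Left, number of respiratory chain genes (y axis) by their number of distal summits within 50 kb (x axis) in each list; right, mean number of distal summits per gene for respiratory chain genes (plain) and all protein-coding genes (hatched). The respiratory chain means of 1.47, 2.04, 1.99 and 0.990 each lie below the bar beside them.

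Silc1-/- injured had more distal summits than Silc1-/- sham around 17 genes and fewer around 43 (17.7 and 44.8%, against 15.9 and 47.4% of all protein-coding genes). Wild-type injured had more than wild-type sham around 59 and fewer around 1 (61.5 and 1.04%, against 55.7 and 6.52%). Silc1-/- sham had more than wild-type sham around 56 and fewer around 8 (58.3 and 8.33%, against 57.8 and 7.78%). Silc1-/- injured had more than wild-type injured around 13 and fewer around 41 (13.5 and 42.7%, against 18.1 and 44.3%). In each comparison the shares were within about 6 percentage points of those of all protein-coding genes.

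Joined within 200 bp, the distal summits made 319 loci, of which 55 were in all 4 lists and 171 in 1 list. The loci found in 1 list were of Silc1-/- injured in 30 cases, Silc1-/- sham in 69, wild-type injured in 63 and wild-type sham in 9. A respiratory chain gene was the nearest protein-coding gene for 61 loci (19.1%), and 27 lay inside a respiratory chain gene. The distal summits are thus mostly nearer to other genes. Their median score was 4.84 in Silc1-/- injured, 4.97 in Silc1-/- sham, 5.19 in wild-type injured and 5.59 in wild-type sham, below that of the gene-end summits in the same lists (8.91, 14.5, 23.2 and 13.6).

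Atp5d had the most distal summits, with 10 in Silc1-/- injured, 9 in Silc1-/- sham, 10 in wild-type injured and 9 in wild-type sham. Of its 12 loci 8 were in all 4 lists, and 2 of these 8 lay inside the gene, among them the internal start described above. Its highest, at chr10:80160000, 14172 bp from the gene and nearest to Midn, had scores of 24.3 in Silc1-/- injured, 28.9 in Silc1-/- sham, 54.4 in wild-type injured and 27.3 in wild-type sham. Sdhc had 6 distal summits in Silc1-/- injured, 9 in Silc1-/- sham, 7 in wild-type injured and 4 in wild-type sham, none of them inside the gene. Most lay toward Cfap126 and Fcgr3.

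Cox4i2, with no gene-end summit, had 4 distal summits in Silc1-/- injured, 5 in Silc1-/- sham, 8 in wild-type injured and 3 in wild-type sham. All lay outside the gene, nearest to Id1 or Bcl2l1. Ndufb9, a complex I subunit, had 4 in Silc1-/- injured, 6 in Silc1-/- sham, 7 in wild-type injured and 0 in wild-type sham. Its highest-scoring locus, at chr15:58910565 inside Tatdn1, had 11.5 in Silc1-/- injured and 7.94 in Silc1-/- sham. A wild-type injured summit of 9.05 lay nearby at chr15:58910128, beyond the joining distance of 200 bp, and was counted as another locus. Sdhb had 0 in Silc1-/- injured, 5 in Silc1-/- sham, 3 in wild-type injured and 2 in wild-type sham, with a locus inside the gene at chr4:140964804 scoring 4.25 in Silc1-/- sham and 7.33 in wild-type injured. These genes were named for the size of these differences, and most of the loci behind them scored below 10.

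Ranked by the lowest of their 4 scores, the 4 highest distal loci lay within 50 kb of Ndufv3, Cox6a2, Atp5g3 and Ndufb3. The locus 18012 bp from Ndufb3, at chr1:58613976, had scores of 61.2 in Silc1-/- injured, 73.8 in Silc1-/- sham, 49.7 in wild-type injured and 77.8 in wild-type sham, and Ndufb3 was its nearest protein-coding gene. The locus near Ndufv3, a subunit of the NADH-oxidising arm, lay inside Pknox1 and had 150.4, 130.3, 109.3 and 150.5 in the same order. The locus near Cox6a2, at chr7:128187774 inside Itgad, had 100.5 in Silc1-/- injured, 112.4 in Silc1-/- sham, 67.2 in wild-type injured and 62.9 in wild-type sham. The locus near Atp5g3, at chr2:73867968 inside Atf2, had 63.8, 87.7, 72.0 and 61.6. The lowest score was in wild-type injured near Ndufv3 and Ndufb3 and in wild-type sham near Cox6a2 and Atp5g3, so the 4 loci had no common order of lists. They were chosen after their values were seen.

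Other nuclear genes of mitochondrial respiration also had gene-end summits in shares above the 45.6, 50.9, 51.9 and 46.2% of all protein-coding genes. Of 32 assembly factors and electron carriers outside the rule, 29 had a gene-end summit in Silc1-/- injured, 31 in Silc1-/- sham, 30 in wild-type injured and 30 in wild-type sham. Cycs, cytochrome c itself, had scores of 35.8, 45.6, 97.5 and 54.0 in the same order, and Surf1, a complex IV assembly factor, had 3.31 in Silc1-/- sham and 3.79 in wild-type injured only. Of 15 genes of pyruvate oxidation and the tricarboxylic acid cycle, 14 had one in Silc1-/- injured and 15 in each of the other lists. Of 11 regulators, 9 had one in every list, among them Nrf1, Gabpa, Yy1, Tfam (a factor for the mitochondrial genome) and Ppargc1a (a coactivator of mitochondrial genes). The Gabpa summit is also the best gene-end summit of Atp5j in each list, so it is not separate from the 96 genes. Gabpb1 and Polg had none by gene ends, and their annotated starts are not reported here. The shares were 90.6, 96.9, 93.8 and 93.8% for assembly factors and carriers, in the same order of lists. For pyruvate oxidation and the cycle they were 93.3% in Silc1-/- injured and 100% in the others, and for regulators 81.8% throughout. Assembly, carrier and cycle genes lay above the 96 genes in each list, regulators only in Silc1-/- injured. As for the 96 genes, coverage was high in all 4 lists.

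Markers of the ganglion's cell types, and of skeletal muscle, which is not part of the ganglion, were counted in the same way. Of 10 sensory neuron markers, 5 had one in Silc1-/- injured, 6 in Silc1-/- sham, 6 in wild-type injured and 4 in wild-type sham, against 45.6, 50.9, 51.9 and 46.2% of all protein-coding genes, which is near these shares. Isl1, Tubb3 and Scn9a had one in all 4 lists. Of 5 macrophage markers only Itgam had one, in wild-type injured, and of 3 endothelial markers only Kdr, in wild-type injured. Of 8 skeletal muscle markers, 2 had one in Silc1-/- injured, 1 in Silc1-/- sham, 2 in wild-type injured and 1 in wild-type sham. The part of cell makeup in the values of the respiratory chain genes was not tested.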

How the data were processed

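ATAC-seq was done on DRG of 4 groups of 3 libraries, grouped by the genotype and treatment in the labels. The submitters' processing notes name Bowtie2, MACS2 and mm10. Versions, read filters, any shift for the transposase and pooling of the 3 libraries are not stated there. The deposited files are 4 lists of summits, each with a position and a score on a −log10 scale, as MACS2 gives it. Whether it is the −log10 of a p-value or of a q-value the authors do not state. The lowest score was 1.30. Scores were ranked within a list. Depth is unknown, since the deposited files give no reads.

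Genes, and promoters of 78 of the 96, came from RefSeq tables of GRCm38.p6. The gene table gives no strand, so either gene end within 1 kb was used. Summits were joined within 200 bp. With 1 list per group no test was possible. The members, lists and motifs were chosen with earlier results of these data known. Genes were named if in no list or in 1 to 3 lists, if highest or lowest in rank per complex, if tissue-restricted, or for most or most different distal summits; other named members were chosen after their values were seen. Single values of 1 member and the glial marker list are not reported here, and that member is counted in the totals. Of the promoters this rule selects, 10 are printed. The counting steps were checked on simulated data, where 200 of 200 planted gene ends were recovered. Alternatives covered distances, scores, list length, starts and the set of genes. Python 3.11.15, numpy 2.4.6, pandas 2.3.3, statsmodels 0.14.6 and matplotlib 3.10.9 were used.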

Additional observations from a re-analysis of the deposited data

Results flagged for a closer look

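The count of distal summits around the respiratory chain genes differed between injured and sham in opposite directions in the 2 genotypes. Injured minus sham was −55 summits in Silc1-/- (141 against 196) and 96 in wild type (191 against 95); the difference between these was not tested, and the lists' own totals have the same directions. With each list cut to the length of the shortest, the counts were 111 against 115 in Silc1-/- and 118 against 95 in wild type. Per 1000 distal summits of the list they were 5.80 against 5.70 in Silc1-/- and 6.42 against 6.0 in wild type, higher in injured in both genotypes. Summits on the mitochondrial genome, which carries the other respiratory chain subunits and was not part of any comparison, numbered 6 in Silc1-/- injured, 5 in Silc1-/- sham, 6 in wild-type injured and 6 in wild-type sham, with highest scores of 727, 494, 376 and 450.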

How the results depend on the processing

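No paired analysis was possible because each group has 1 list, whose values carry no replicate number; for the same reason no replicate could be left out. Of 141 values recomputed under alternatives, 60 stayed within 1.5 times (counts) or the counting interval (shares and medians) of the reported value, and 81 moved. Among the 81 are counts over fewer genes or in other neighbourhoods, which change with the setting itself. Without shared ends, 31 of 42 genes were in all 4 lists, or 73.8% against 77.1% of the 96. Lists below are in the order Silc1-/- injured, Silc1-/- sham, wild-type injured, wild-type sham. Gene-end distances of 500 and 2500 bp, and starts counted beside ends (chosen after seeing the data), moved none. The share with a gene-end summit was 42.7, 68.8, 76.0 and 61.5% at scores of at least 10 (39 genes in all 4 lists), 63.5% in Silc1-/- injured at scores of at least 5, 87.2, 92.3, 94.9 and 91.0% by annotated start only, 73.8% in wild-type sham for genes without a shared end (31 in all 4 lists), and 85.2, 89.8 and 92.0% in the first 3 lists without the 8 tissue-restricted isoforms (chosen after seeing the data). Median percentiles at equal list lengths were 79.7 in Silc1-/- sham and 78.7 in wild-type injured.

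Sharing within 50 bp was, for Silc1-/- injured summits near Silc1-/- sham, wild-type injured and wild-type sham, 65.5, 66.7 and 59.8%; for Silc1-/- sham near Silc1-/- injured, wild-type injured and wild-type sham 58.2, 61.2 and 52.0%; for wild-type injured near Silc1-/- injured, Silc1-/- sham and wild-type sham 59.2, 61.2 and 65.3%; for wild-type sham near Silc1-/- injured, Silc1-/- sham and wild-type injured 57.1, 56.0 and 70.3%. Within 500 bp these were 98.9, 100 and 97.7%, then 87.8, 94.9 and 88.8%, then 94.9% for wild-type injured near Silc1-/- sham, then 91.2, 94.5 and 97.8%. Within 1000 bp they were 100, 100 and 98.9%, then 91.8, 98.0 and 92.9%, then 89.8, 95.9 and 92.9%, then 92.3, 95.6 and 97.8%. At scores of at least 5, Silc1-/- injured near wild-type injured and wild-type sham gave 95.4 and 93.8%, Silc1-/- sham near these 93.8 and 90%, wild-type injured near Silc1-/- injured 69.7% and wild-type sham near wild-type injured 98.7%. At equal list lengths Silc1-/- sham near wild-type injured and wild-type sham gave 93.8% each.

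Distal summits numbered 38, 48, 51 and 31 within 10 kb, 245, 367, 353 and 182 within 100 kb, 69, 95, 104 and 56 at scores of at least 5, 25, 44, 49 and 27 at scores of at least 10, and 292, 370, 380 and 257 counting all summits over 1 kb from the gene's own ends. At equal list lengths they were 111, 115, 118 and 95. Depth is unknown and limits every absence of a summit: a gene end below the caller's threshold in a shallow list cannot be told apart from a closed one.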
